A study of Mus musculus with 3 samples.

Results

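Receptors, a growth factor and matrix and cytoskeletal genes of the invasive, low-Mitf melanoma state were examined in B16F10 cells, a mouse melanoma line, with and without knockdown of Med23. The genes were chosen by symbol from the deposited expression table: Fn1, Axl, Gas6, Ngfr, Cd44, Met, Egfr, Vim, Zeb1 and Zeb2. Of these 10 symbols 8 had a row among the 12852 genes of the table, and Gas6 and Zeb1 are not analysed here. RNA sequencing compared 1 library of control cells, titled siCtrl and labelled wild type, with 2 libraries of cells labelled as Med23 knockdowns. All 3 came from B16F10 cells in serum-containing medium, and the sources used here do not give the time and reagent of the knockdown. The labels leave unsaid whether separate cultures or different siRNAs gave the knockdown libraries, so the spread between them may be technical. The library in the first knockdown column of the table is called the first here, and the other the second.

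Melanoma cells move between a differentiated state, held by the transcription factor Mitf and rich in pigment proteins, and an invasive, dedifferentiated state with little Mitf. The invasive state is known for the receptor tyrosine kinase Axl and its ligand Gas6, the neurotrophin receptor Ngfr, Egfr, the matrix protein fibronectin (Fn1) and the mesenchymal filament vimentin (Vim). Zeb1 is usually placed with the invasive state and its relative Zeb2 with the differentiated one. Met, the receptor of hepatocyte growth factor, drives invasion, yet it is also a reported target of Mitf. Med23 is a subunit of Mediator, which links transcription factors to RNA polymerase II.

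Levels are RPKM, which count reads per length of transcript and per size of library, and the deposited columns share 1 common distribution. They therefore place a gene relative to the other genes of its library and hold no read depth. Genes averaging at least 1 RPKM were tested, 9722 in all, of which 7 were members of the group examined here. Tests used limma on log2(RPKM + 1) with p-values adjusted by Benjamini-Hochberg over all tested genes, and "rose" or "fell" means an adjusted p under 0.05. The lone control was taken to vary like a knockdown library, which these data cannot check. Fits with a control SD of 3 times that of a knockdown library are given where they end a call. Med23 was 5.23 RPKM in control cells and 1.65 and 1.61 RPKM after knockdown, and Mitf was 9.0 RPKM, then 4.23 and 3.51 RPKM. The melanocytic markers fixed for the identity of the line (Pmel, Tyr, Tyrp1, Dct, Mlana, Sox10 and Mitf) were all present in the control. In bulk RNA, fewer cells of one state and less RNA per cell cannot be told apart.

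The promoters of Met and Axl are shown because these 2 receptor tyrosine kinases moved in opposite directions. The RefSeq table (build GRCm38.p6) gave windows for 7 of the 8 genes, Fn1 being the exception, and the 250 bases before the annotated start were searched on both strands. Capitals mark matches to 5 short motifs: CACGTG, an E-box that Mitf and other bHLH factors bind, CATGTG, its variant in pigment genes, TGANTCA, the AP-1 site, GGAATG, the Tead site, and CAGGTG, the E-box of Zeb and Snail factors. The Met window lies at chr6:17463707-17463956 on the plus strand and the Axl window at chr7:25788734-25788983 on the minus strand.

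Met: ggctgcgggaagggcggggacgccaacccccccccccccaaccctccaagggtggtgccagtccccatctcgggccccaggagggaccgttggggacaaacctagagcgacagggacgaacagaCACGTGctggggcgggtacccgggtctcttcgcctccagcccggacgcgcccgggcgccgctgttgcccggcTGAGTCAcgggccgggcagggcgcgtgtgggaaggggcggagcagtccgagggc

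Axl: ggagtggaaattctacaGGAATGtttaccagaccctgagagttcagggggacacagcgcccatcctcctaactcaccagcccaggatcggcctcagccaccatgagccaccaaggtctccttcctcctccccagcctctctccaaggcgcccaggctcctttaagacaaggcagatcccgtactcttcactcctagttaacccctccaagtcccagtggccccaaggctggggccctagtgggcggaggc

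The Met window held CACGTG at 126 to 121 bases before the start and TGAGTCA at 54 to 48 bases before it. The Axl window held GGAATG at 233 to 228 bases. Among all 32851 RefSeq windows of this length 6.02% held CACGTG, 12.3% CATGTG, 6.75% TGANTCA, 12.6% GGAATG and 17.2% CAGGTG. In the 10 windows of the 7 genes, CACGTG was found in 1 (Met), TGANTCA in 2 (Met and 1 of the 4 windows of Zeb2) and GGAATG in 2 (Axl and the same window of Zeb2). CATGTG and CAGGTG were found in 0 of the 10, and the Ngfr, Vim, Cd44 and Egfr windows held none of the 5. The motifs did not overlap one another, and a match to such short letters is a description of the sequence.

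The receptors split. Met (ENSMUSG00000009376) fell sharply, Axl and Ngfr rose, and Egfr was barely present. Met stood at 162 RPKM in control cells and at 34.5 RPKM in the first knockdown library and 34.8 RPKM in the other. Both knockdown values lay far below the control and within 1 RPKM of each other. The mean after knockdown, 34.6 ± 0.185 RPKM (SD, n = 2), was 4.69-fold lower, with a log2 ratio of -2.20 (SE 0.06, adjusted p by limma = 0.000107). Ordered from the lowest, this log2 ratio was the 17th of the 9722 tested genes. The window before the start of this gene held the E-box shown above, as did 6.02% of all windows, and the AP-1 site, as did 6.75%. Whether Mitf, an AP-1 factor or another factor acts at either site was not tested.

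Axl (ENSMUSG00000002602), a receptor of the Tam family that binds Gas6 and protein S, was 7.06 RPKM in control cells and 17.0 and 17.7 RPKM after knockdown. Both knockdown libraries were above the control, with a mean of 17.4 ± 0.492 RPKM (SD, n = 2), 2.46-fold higher. The log2 ratio was 1.19 (SE 0.09, adjusted p by limma = 0.000792), and the call was lost with the 3 times larger control SD (adjusted p = 0.0789). Ngfr (ENSMUSG00000000120), the low-affinity neurotrophin receptor and a neural crest marker, was 0.520 RPKM in control cells and 2.77 and 2.80 RPKM after knockdown. Its knockdown mean was 5.36-fold higher, but the level stayed low, and Ngfr was tested at all only because of its knockdown values. Its log2 ratio was 1.32 (SE 0.11, adjusted p by limma = 0.00104). With a pseudocount of 0.1 RPKM in place of 1 RPKM that ratio was 2.22, with 5 RPKM it was 0.50, and the call was lost with the 3 times larger control SD (adjusted p = 0.0968).

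Egfr (ENSMUSG00000020122), the receptor of epidermal growth factor, was 0.00323 RPKM in control cells and 0.00337 and 0.00345 RPKM after knockdown. Only 7 genes of the table had a lower value in the control. Egfr lay under the limit for testing, and at such values no change can be read.

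Fn1 (ENSMUSG00000026193), which encodes fibronectin, the matrix protein on which integrins pull, was 38.7 RPKM in control cells and 205 and 220 RPKM after knockdown. Both knockdown libraries were more than 5-fold above the control, and their difference was small beside that gap. The mean was 212 ± 10.0 RPKM (SD, n = 2), 5.49-fold higher, with a log2 ratio of 2.43 (SE 0.06, adjusted p by limma = 7.98e-05). This rise was the 34th largest among the tested genes. Fn1 moved from place 1078 of 12852 by level in the control to places 165 and 152.

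Cd44 (ENSMUSG00000005087), the cell surface receptor for hyaluronan, changed little. It was 70.9 RPKM in control cells and 59.0 and 59.4 RPKM after knockdown, a mean of 59.2 ± 0.313 RPKM (SD, n = 2). Both values were below the control by a ratio of about 1.20, and the log2 ratio was -0.26 (SE 0.06, adjusted p by limma = 0.0211). The call was lost without an intensity trend (adjusted p = 0.0707), with the 2 and 3 times larger control SD (adjusted p = 0.159 and 0.418) and after correction for transcript length and GC content. After that correction the ratio was -0.032 (adjusted p = 0.745).

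Vim (ENSMUSG00000026728), the intermediate filament protein of mesenchymal cells, was the most abundant of the 8 genes in every library. Its level was 1249 RPKM in control cells and 2182 and 2359 RPKM after knockdown, a mean of 2270 ± 125 RPKM (SD, n = 2) and 1.82-fold higher. The log2 ratio was 0.86 (SE 0.05, adjusted p by limma = 0.000356). Vim was 20th of all genes by level in the control, 9th in the first and 6th in the second knockdown library. Since the distributions had been made equal, the value at these top places is set by rank alone. Of the 19 genes above Vim in the control, Dct, Tyrp1 and Pmel lay below it in both knockdown libraries, and the others are not described here. Their part in the Vim ratio was not tested.

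Zeb2 (ENSMUSG00000026872), a zinc finger repressor of E-cadherin, was 10.5 RPKM in control cells and 11.6 and 10.2 RPKM after knockdown, so the control lay between the knockdown libraries. The log2 ratio of 0.05 (SE 0.11, adjusted p by limma = 0.728) did not pass the test. After the correction for length and GC content it was 0.50 (adjusted p = 0.00195). Zeb2 has a long, GC-poor transcript, of 9124 bases and 40.6% GC in GENCODE M21, against medians of 3383 bases and 49.7% over the tested genes. Met and Fn1 also have long transcripts, of 6809 and 8315 bases. After the same correction their log2 ratios were -1.92 and 2.70, in place of -2.20 and 2.43. Across tested genes log2 ratios had a Spearman correlation of -0.357 with transcript length and 0.178 with GC content, a description over genes that share the same 3 libraries.

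**Figure D1:**
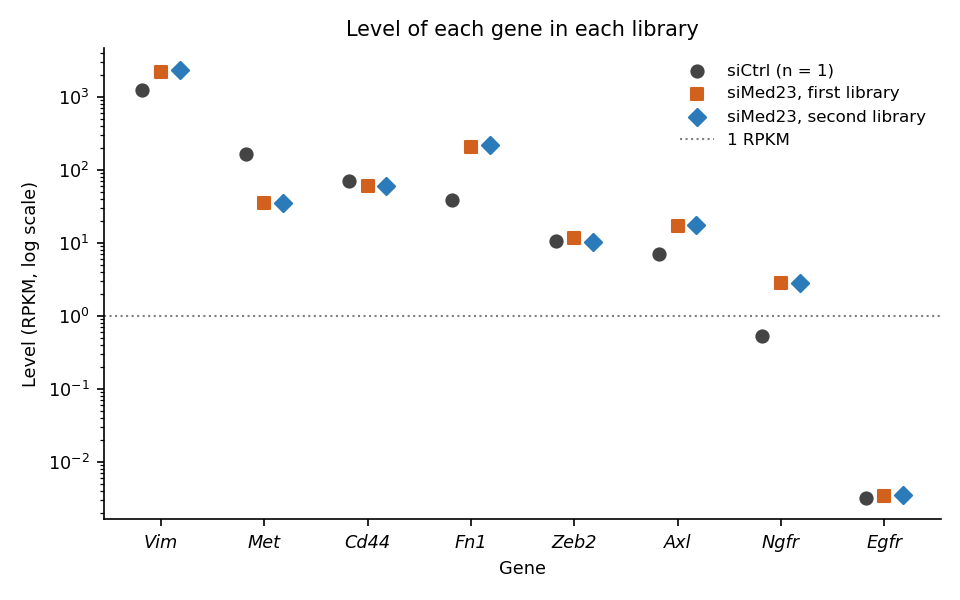
Level of each of the 8 genes in each library, in RPKM on a log axis. Circles are the control, squares the first and diamonds the second knockdown library, and the dotted line marks 1 RPKM. Met drops from 162 RPKM to 34.5 and 34.8 RPKM, Fn1 climbs from 38.7 RPKM to 205 and 220 RPKM, and Egfr stays near the bottom of the scale.

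Of the 7 tested genes 4 passed the test as higher and 2 as lower (Met and Cd44). The higher ones were Fn1, Axl and Vim, with 3 calls that do not rest on the limit for testing, and Ngfr, which reached that limit only through its knockdown values and so had to differ. Of all tested genes 26.3% were called higher and 24.0% lower, so being called was in itself common in this comparison. Fewer genes reached a large change. Apart from Ngfr, 2 genes (Fn1 and Axl) were at least 2-fold higher in both knockdown libraries, as were 4.97% of all tested genes, and Met was at least 2-fold lower in both, as were 4.76%. With the 3 times larger control SD the calls were 2 higher (Fn1 and Vim) and 1 lower (Met), against 1.21% and 0.792% of all tested genes. The adjusted p-values in that fit were 0.0108 for Fn1, 0.0413 for Vim and 0.0144 for Met. The median log2 ratio of the 7 genes was 0.86, without Ngfr it was 0.46, and that of all tested genes was 0.01.

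**Figure D2:**
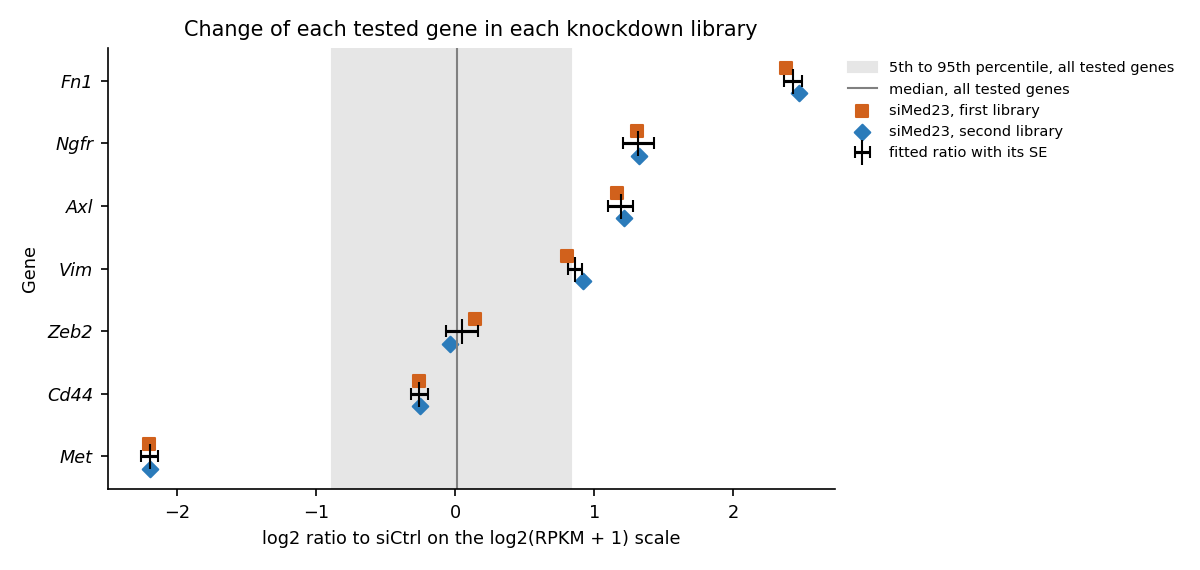
The log2 ratio to the control on the log2(RPKM + 1) scale for the 7 tested genes, with squares for the first and diamonds for the second knockdown library. Black bars are the fitted ratio with its SE, the grey band spans the 5th to the 95th percentile of all tested genes (-0.89 to 0.83), and the grey line is their median. Fn1, Ngfr, Axl and Met lie outside the band in both libraries, while Cd44 and Zeb2 lie inside it.

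Replicate spread varied within this group. The second and the first knockdown library differed in log2 value by 0.01 for Met, Cd44 and Ngfr, 0.05 for Axl, 0.10 for Fn1, 0.11 for Vim and -0.18 for Zeb2 (second minus first). Over all tested genes the median absolute difference was 0.09 and the 95th percentile 0.34. Fn1, Vim and Zeb2 lay above that median and the other tested members below it, and all lay under the 95th percentile.

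Knockdown changed the order of the genes by level, which RPKM allows since it is per transcript length. In the control the order ran Vim, Met, Cd44, Fn1, Zeb2, Axl, Ngfr and Egfr. In both knockdown libraries it ran Vim, Fn1, Cd44, Met, Axl, Zeb2, Ngfr and Egfr. Met and Fn1 thus traded the second and the fourth place. In RPKM, Met was 4.19-fold above Fn1 in the control, and Fn1 was 5.95-fold and 6.32-fold above Met after knockdown. Met was 23.0-fold above Axl in the control and 2.02-fold and 1.96-fold above it after knockdown. Each pair of neighbours in the order after knockdown kept its order in both libraries, and with 1 control library the spread behind the control's order is unknown.

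Genes with the most similar levels across the 3 libraries were found by Euclidean distance in log2(RPKM + 1) over the tested genes. For Met they were Hmox1 (137 RPKM in the control, then 30.2 and 34.4 RPKM), Egln1 (131, then 31.5 and 35.3 RPKM) and Gbe1 (121, then 31.4 and 36.9 RPKM), at distances of 0.308, 0.328 and 0.447. For Fn1 they were Gadd45b, Cxcl1 and Bst2, at distances of 0.260, 0.767 and 0.884. For Axl they were Med22, Srf and Nrm, at distances of 0.117, 0.129 and 0.163. With 3 libraries such likeness says only that control and knockdown levels lie close.

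Partners of these receptors, namely ligands, co-receptors and adaptors, were more often lower than higher. Of those tested 13.3% were called higher and 46.7% lower, against 26.3% and 24.0% of all tested genes. Of the 37 entries 25 had values and 15 were tested, of which 2 rose, 7 fell and 6 did not pass, with a median log2 ratio of -0.17. Ngfrap1, which encodes a protein that binds Ngfr, rose from 72.5 to 122 ± 9.58 RPKM, and Hbegf, an Egfr ligand, from 1.46 to 2.36 ± 0.193 RPKM. Grb2, the adaptor that couples Met and Egfr to Ras, fell from 24.0 to 15.1 ± 0.130 RPKM. Errfi1, a feedback inhibitor of Egfr, fell from 3.44 to 1.85 ± 0.206 RPKM, and Sort1, a partner of Ngfr in binding pro-neurotrophins, from 38.7 to 26.5 ± 1.42 RPKM. By limma with the 3 times larger control SD 0 of the 15 passed, against 1.21% of all tested genes higher and 0.792% lower. At an unadjusted p under 0.05 in that fit 1 was higher and 1 lower, and the share of all tested genes there was not counted. After the length and GC correction the counts were 4 higher and 5 lower. In that fit 2622 genes of the whole table were called higher and 2396 lower. A ligand and the relatives of Axl are named after their values were seen. Pros1, which encodes protein S, was 5.37 RPKM in control cells and 6.97 and 6.70 RPKM after knockdown (adjusted p = 0.0604 by limma). Tyro3, a Tam receptor like Axl, was 1.39 RPKM, then 1.34 and 1.32 RPKM, and Mertk, also of this family, was untested at 0.370 RPKM, then 0.473 and 0.806 RPKM.

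Among the matrix genes more rose than fell, with 47.8% of those tested higher and 21.7% lower, against 26.3% and 24.0% of all tested genes. The share lower was thus near that of all tested genes. Of 39 entries for matrix, hyaluronan and pericellular proteolysis 31 had values and 23 were tested, of which 11 rose, 5 fell and 7 did not pass, with a median log2 ratio of 0.31. Among the 11, Spp1, named after its values were seen, was under 1 RPKM in control cells and was tested only through its knockdown values, which leaves 10. The 47.8% includes Spp1, and without it the median log2 ratio was 0.21. Col4a1, a chain of basement membrane collagen, rose from 6.0 to 13.2 ± 0.728 RPKM and Lamb1, a laminin chain, from 2.64 to 6.30 ± 0.589 RPKM. Timp1, an inhibitor of matrix metalloproteases, rose from 6.21 to 12.6 ± 1.13 RPKM, whereas its relative Timp3 fell from 39.7 to 24.4 ± 1.58 RPKM. Hyal1 and Hyal2 degrade the hyaluronan that Cd44 binds. Hyal1 fell from 55.9 to 37.7 ± 1.99 RPKM, and Hyal2 dropped from 2.41 to 1.15 ± 0.414 RPKM. By limma with the 3 times larger control SD 0 of the 23 were called, against 1.21% of all tested genes higher and 0.792% lower. At an unadjusted p under 0.05 in that fit 6 were higher and 2 lower. The share of all tested genes at that cutoff was not counted, so nothing is read from these counts.

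Other genes used to mark the invasive state went both ways, with 8 of 21 tested higher, 6 lower and 7 not past the test. There were 36 entries, of which 26 had values. The calls were 38.1% higher and 28.6% lower, against 26.3% and 24.0% of all tested genes. Of the 8, Ctgf, Fosl1 and Sox9 were under 1 RPKM in control cells and were tested only because of their knockdown values, which leaves 5 higher against 6 lower. The 38.1% includes these 3 genes and is therefore no sign that more of the list rose. Fosl1 and Sox9 are named after their values were seen. The median log2 ratio was -0.12, or -0.20 without Ctgf, Fosl1 and Sox9. With all 21 genes it was 0.27 after the length and GC correction, in which the counts were again 8 and 6. In that fit 2622 genes of the whole table were called higher and 2396 lower. Jun, an AP-1 subunit, rose from 22.8 to 98.4 ± 4.60 RPKM, Tnfrsf12a, the receptor of Tweak, from 29.2 to 67.5 ± 0.200 RPKM. Ctgf, a matrix-associated target of Yap, was 0.522 RPKM in control cells and 2.78 and 2.15 RPKM after knockdown. Wwtr1, which encodes the Yap relative Taz, fell from 25.6 to 11.0 ± 0.588 RPKM. Smad3, a transducer of Tgf-beta signals, fell from 12.8 to 5.93 ± 0.329 RPKM and S100a4, a calcium-binding protein linked to metastasis, from 18.2 to 6.06 ± 0.860 RPKM. Jun and Tnfrsf12a, both higher, were the only 2 of the list called with the 3 times larger control SD. Of all tested genes 1.21% were called higher and 0.792% lower in that fit.

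Among epithelial-mesenchymal factors, junction proteins and keratins 11 of 25 entries had values. Of 7 tested 2 rose, 2 fell and 3 did not pass (median log2 ratio -0.12). These were 28.6% each way, near the 26.3% higher and 24.0% lower of all tested genes. Snai2, a Snail family repressor, rose from 1.15 to 2.76 ± 0.552 RPKM and Tcf3, a bHLH factor, from 7.16 to 9.65 ± 0.549 RPKM. The Tcf3 call was lost after the length and GC correction (log2 ratio 0.27, adjusted p = 0.0549 by limma). Ctnnb1, which encodes beta-catenin, fell from 180 to 105 ± 3.88 RPKM and Plec, a linker of intermediate filaments such as vimentin, from 7.63 to 4.27 ± 0.296 RPKM. By limma with the 3 times larger control SD 0 of the 7 were called, against 1.21% of all tested genes higher and 0.792% lower. At an unadjusted p under 0.05 in that fit 0 were higher and 1 lower, and the share of all tested genes there was not counted.

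Genes of the opposite, differentiated state fell, with 12 of 13 tested lower and 0 higher by limma, also 0 higher at an unadjusted p under 0.05, and a median log2 ratio of -1.39. Of all tested genes 26.3% were called higher and 24.0% lower. Of the 12, 8 were called lower with the 3 times larger control SD, as were 0.792% of all tested genes. The calls of Mitf, Sox10, Pax3 and Oca2 were lost. The fixed rule names the pigment genes Pmel, Tyr and Slc45a2, whose log2 ratios were -1.59, -2.95 and -2.27. The 13th, Gpr143, was 2.90 RPKM in control cells and 2.36 and 2.43 RPKM after knockdown. The Met ratio of -2.20 thus lay among those of this list, and the Fn1, Axl, Vim and Zeb2 ratios lay above all of them. The Cd44 ratio of -0.26 lay below that of Gpr143 (-0.20). The Ngfr ratio was also above them all, but Ngfr was tested only because of its knockdown values.

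**Figure D3:**
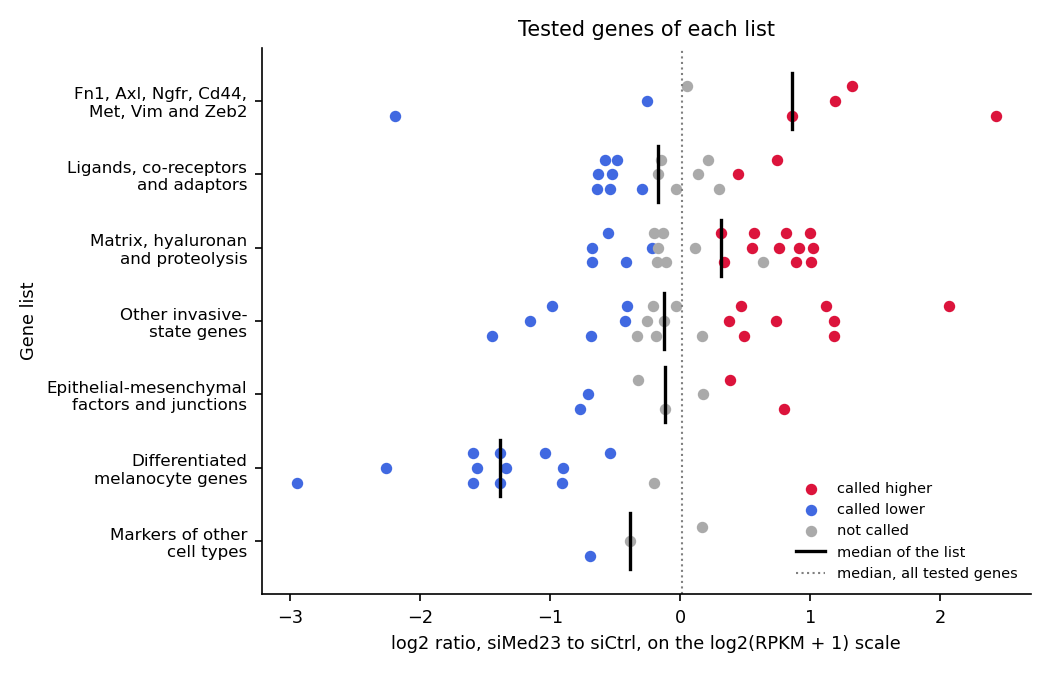
The log2 ratio of every tested gene in the group examined here (top row) and in 6 related lists, on the log2(RPKM + 1) scale. Red points were called higher, blue points lower and grey points neither, black bars are list medians and the dotted line is the median of all tested genes. Differentiated melanocyte genes lie to the left, matrix genes have a median of 0.31 (0.21 without Spp1), and the other invasive-state genes spread to both sides.

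Markers of other cell types were few and low. Of 20 entries 6 had values, with a summed level of 22.0 RPKM in control cells and 14.7 and 14.5 RPKM after knockdown. Cd68, a lysosomal protein of macrophages that other cells also make, supplied most of it, at 16.9 RPKM in control cells and 10.0 and 10.1 RPKM after knockdown, and was the only 1 of 3 tested markers called lower, a call lost with the 3 times larger control SD (adjusted p = 0.196 by limma). Csf1r, a defining macrophage receptor, was 0.588 RPKM in the control, then 0.271 and 0.457 RPKM. Col1a1, a defining fibroblast collagen, was 0.189 RPKM, then 0.200 and 0.405 RPKM, and Pdgfrb, which the list of other invasive-state genes also holds, 1.90 RPKM, then 2.22 and 2.29 RPKM. The part of other cells in the Fn1 and Vim results was not tested.

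**Figure D4:**
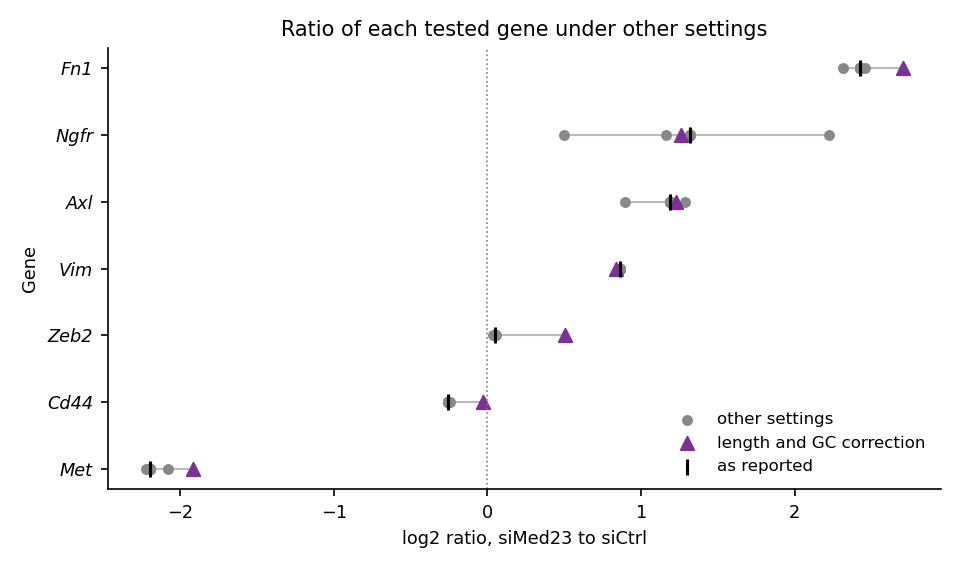
The log2 ratio of each tested gene as reported (black bar), after correction for transcript length and GC content (triangle) and under the other settings tried (grey points), with grey lines spanning the range. With both knockdown libraries in the fit the ratios keep their sign for all 7 genes in these settings, the Ngfr ratio runs from 0.50 to 2.22 with the pseudocount, and the Zeb2 ratio moves from 0.05 to 0.50 with the length and GC correction.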

How the data were processed

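RNA was extracted with Trizol and columns and sequenced after standard Illumina library preparation, per the labels' protocols. The deposited table held RPKM computed by the authors, in 3 value columns that were all used. CASAVA 1.4, TopHat, Cufflinks and the build mm9 stand in the submitters' processing notes, without their roles, and the annotation and filters are not given in the sources used here. Sorted values of the 3 columns were equal (relative difference under 1e-09) at 95.3% of positions and differed by at most 0.685%, so the RPKM had been quantile normalized. Each column summed to 255492 RPKM. Depth is unknown, and no counting interval is given. The header joined the names of the knockdown columns, so each was taken as a library of the group, not of a single sample.

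The genes examined and the related lists were chosen with earlier results of these data known. limma 3.58.1 in R 4.3.3 was run on log2(RPKM + 1) with an intensity trend over the 9722 genes averaging 1 RPKM or more, with 1 residual degree of freedom and a prior of 4.37. The limma step was tested on simulated data in which the control varied like the knockdown libraries, so it could not check that assumption. Log2 ratios on this scale understate the change of low genes. All genes of the group were named, with up to 3 called genes in each direction from each related list, by the smaller change of the 2 knockdown libraries. Length and GC content came from the longest GENCODE M21 transcript of each gene, matched by ID for 98.9% of tested genes. That annotation and the RefSeq promoters belong to a later build than mm9 and were matched by ID or symbol only. Python 3.11.15, pandas 2.3.3, numpy 2.4.6 and matplotlib 3.10.9 were used.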

Additional observations from a re-analysis of the deposited data

How the results depend on the processing

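The alternatives were pseudocounts of 0.1 and 5 RPKM, no filter or a minimum of 5 RPKM, quantile normalization repeated, medians made equal, no intensity trend, a robust prior, a control with 2 or 3 times the SD of the knockdown libraries, correction for length and GC content, and other fold limits. Fn1, Met and Vim kept their direction and their call in all 11 refits. The columns already shared 1 distribution, so equal medians and repeated quantile normalization could hardly move these results and are no check of them. Equal medians gave the same values as the main fit, and the repeated normalization left the ratios of Fn1, Met and Vim unchanged. With the 3 times larger control SD 77 genes of the whole table were called lower and 118 higher, in place of 2332 and 2556, and 1 and 2 of the group in place of 2 and 4. The log2 ratios themselves did not change with it, at 1.19 for Axl, 1.32 for Ngfr and -0.26 for Cd44, but these 3 calls were lost. With the 2 times larger SD 683 genes were called lower and 810 higher, 1 of the group was called lower, and Cd44 (-0.26) was lost. With a minimum of 5 RPKM 1494 genes were called lower, fewer because fewer were tested, and Ngfr was not tested. Without an intensity trend Cd44 (-0.26) was lost, which left 1 of the group called lower. With the length and GC correction Cd44 was lost (-0.032), which also left 1 called lower, and Zeb2 was called higher (0.50). The cause of these changes, apart from the settings' own construction, was not tested. With 1 knockdown library left out no residual degree of freedom remains, so the ratios were values without a test, and each kept the direction of the pair except Zeb2, which was 0.14 and -0.04. No paired analysis was possible because the control has 1 library. The lone control and the missing depth limit every result here.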
